A study of Mus musculus with 24 samples.

Results

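The NRF2 pathway and glutathione synthesis were represented by 10 genes, chosen by their symbol on the array: Nfe2l2, Keap1, Nqo1, Gclc, Gclm, Gss, Gsr, Srxn1, Ugdh and Slc7a11. The array carried 20 probes for these 10 genes, out of 41174 probes and 27962 gene names in all. For a gene with several probes, the probe with the highest mean intensity was taken as the main one. The mRNA of whole colon and whole liver was measured in 12 female C57BL/6 mice at 12 weeks of age. Their dams were fed the high-fat HF-low diet, low in selenium and folate, from 7 days before mating until the pups were weaned at about 28 days. From then on 6 mice stayed on HF-low (0.1 mg/kg selenium and 0.4 mg/kg folate; HF-low-low) and 6 were moved to HF-suf (0.6 mg/kg selenium and 1.8 mg/kg folate; HF-low-suf). Each mouse gave both tissues, so there were 24 arrays in 4 groups of 6. All mice had the same maternal diet and a high-fat diet throughout, and selenium and folate were changed together, so their effects cannot be told apart.

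NRF2, encoded by Nfe2l2, is a transcription factor that the adaptor KEAP1 holds in the cytoplasm and hands to a ubiquitin ligase. Oxidants and electrophiles modify KEAP1, and NRF2 then enters the nucleus, pairs with small MAF proteins and binds antioxidant response elements. Its targets make and recycle glutathione, reduce quinones and feed conjugation reactions, which are prominent in liver and in the intestinal wall. Low selenium limits selenoproteins, among them glutathione peroxidases and thioredoxin reductase, and the question put to these data was whether NRF2 targets differed between the diets in either tissue and between liver and colon.

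The core antioxidant response element, TGACNNNGC on either strand, was searched in the RefSeq promoter windows of build GRCm38.p6, which run from 250 bases before to 50 after each start. Of the 10 genes, 8 had a window and 4 of these held the motif, against 12.4% of all 32851 windows. The genes were picked as members of the NRF2 pathway, so this share is not a result of these data. Nfe2l2, Gclm and Ugdh held it before the start, and their upstream stretches are shown because these genes differ between the tissues below; capitals mark the motif. A match describes the letters and is not a tested binding site.
Nfe2l2, chr2:75704664-75704913, minus strand: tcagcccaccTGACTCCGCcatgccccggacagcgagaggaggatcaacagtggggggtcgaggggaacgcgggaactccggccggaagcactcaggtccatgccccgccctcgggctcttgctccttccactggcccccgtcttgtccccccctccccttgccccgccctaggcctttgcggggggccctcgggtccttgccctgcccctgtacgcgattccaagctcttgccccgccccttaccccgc
Gclm, chr3:122245307-122245556, plus strand: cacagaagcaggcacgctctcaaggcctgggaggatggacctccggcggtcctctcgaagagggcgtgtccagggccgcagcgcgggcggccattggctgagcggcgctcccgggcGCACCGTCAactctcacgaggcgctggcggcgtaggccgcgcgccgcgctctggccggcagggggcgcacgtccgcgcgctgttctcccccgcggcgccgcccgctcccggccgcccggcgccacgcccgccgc
Ugdh, chr5:65435843-65436092, minus strand: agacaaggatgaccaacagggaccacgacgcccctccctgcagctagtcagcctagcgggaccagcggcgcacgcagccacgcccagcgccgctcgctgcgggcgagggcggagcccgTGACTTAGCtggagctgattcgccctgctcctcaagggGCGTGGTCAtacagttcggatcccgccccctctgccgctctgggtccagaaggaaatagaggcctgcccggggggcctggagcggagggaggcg
The motif of Srxn1 lay 29 bases after its start, at chr2:152105552-152105560, in this stretch: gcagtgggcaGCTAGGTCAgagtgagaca
Ugdh was the member with 2 matches, on opposite strands. The windows of Keap1, Nqo1, Gss and Slc7a11 did not hold these letters, and Gclc and Gsr had no window.

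Levels are given as log2 of the mouse sample (Cy3) over a common reference (Cy5), an equimolar pool of RNA from the mice, of colon and liver by the labels and of intestine and liver by the study's methods. Skeletal muscle markers lay below this pool on all 24 arrays, with mean log2 ratios of -5.36 to -2.50, and which other tissue the pool held was not tested. A value of 0 is the level of the pool, and values of different genes are not compared. Of the 10 genes, 9 had a main probe well above background in all 24 samples. The exception was Slc7a11, the cystine transporter that supplies glutathione synthesis. Of its 4 probes, 3 were well above background in the sample channel on 0 of 24 arrays, and the fourth on 2 arrays, the same 2 whose reference channel was far brighter than on the others. No fold is given for Slc7a11, and the counts below are of the 9 measured genes.

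Tissue markers matched the labelled tissue of the samples; no such check was made of the diet. Of 6 hepatocyte markers 4 were on the array, and their mean log2 ratio had a median of 1.78 to 1.95 in the 2 liver groups and of -3.94 to -3.91 in the 2 colon groups. Liver HF-low-low replicate 3 was the lowest liver in these markers, at 1.18 against 1.67 to 2.07 in the other 11. The 8 markers of colon epithelium had medians of 0.90 to 1.11 in colon and of -3.79 to -3.67 in liver. Adipose markers were high in every colon, at 1.28 to 3.32, with group medians of 2.91 in HF-low-low and 2.73 in HF-low-suf. Among the livers they were high in 1, HF-low-suf replicate 1, at 2.84 against -1.62 to 0.07 in the others. Whether adipose tissue bears on the differences between liver and colon was not tested. Skeletal muscle markers were highest in liver HF-low-suf replicate 2, at -2.50 against -5.00 to -3.95 in the other livers. Colon HF-low-suf replicate 5 and liver HF-low-suf replicate 4 had a reference channel 18.2 and 12.7 times its background, against 5.43 to 7.62 times on the other arrays, and 8.75% of the spots of the liver array were outliers against at most 0.77% elsewhere. The replicate number is also the slide, with 3 slides scanned on each of 2 days, so each group lay equally on both days.

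None of the 9 genes passed the threshold for the diet in either tissue (a 1.5-fold change with an unadjusted P under 0.01). Over all 41174 probes, 69 passed in colon (0.168%; 0.16% higher and 0.00729% lower in HF-low-suf) and 48 in liver (0.117%; 0.0971% higher and 0.0194% lower). Of the probes with a signal clear of background in 6 or more of the 12 samples of a tissue, 0.0166% passed in colon and 0.0132% in liver. No probe passed a Benjamini-Hochberg adjusted P of 0.05 in limma, while 1228 probes in colon (2.98%) and 877 in liver (2.13%) had an unadjusted P below 0.05. Among the 9 genes, none had an unadjusted P below 0.05 in either tissue. Differences are HF-low-suf minus HF-low-low, with the sample in Cy3 as the labels state. Most of the probes that passed were then higher in HF-low-suf (66 of 69 in colon and 40 of 48 in liver). Among the probes clear of background in 6 or more samples, 3 of 3 were higher in colon and 0 of 2 in liver. On scan days 1 and 2 alone the higher share was 80.6% and 55.3% in colon, and 44.1% and 0% (0 of 2) in liver. Without 1 array it ran from 80% to 99.0% in colon and from 55.9% to 95% in liver. The share of called probes that were higher in HF-low-suf moved with the scaling, from 95.7% to 79.2% with Feature Extraction's processed signals and 80.8% with median centring in colon, and from 83.3% to 34.5% with plain background subtraction, 61.4% with the processed signals and 66.7% with the Cy3 channel alone in liver. Over all probes, the higher share in HF-low-suf is the opposite of the direction that the study gives for most of its genes. The signs below follow the labels, and on this scale the hepatocyte markers were high in liver, as given above. Why the diet direction differs from the study's was not tested.

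In colon, 6 of the 9 genes lay above 0 and 3 below, with a median of 0.16 on the log2 scale, against -0.01 over all probes. The differences ran from -0.04 for Gsr, the reductase that recycles oxidised glutathione, to 0.32 for Gclm, the regulatory subunit of glutamate-cysteine ligase. In liver, 3 lay above 0 and 6 below, with a median of -0.12 against 0.01 over all probes. Here the differences ran from -0.49 for Gclm to 0.16 for Keap1. The widest 95% confidence interval was that of Gclm in liver, -1.27 to 0.29, and a missed threshold does not show that the diets were alike.

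**Figure D1:**
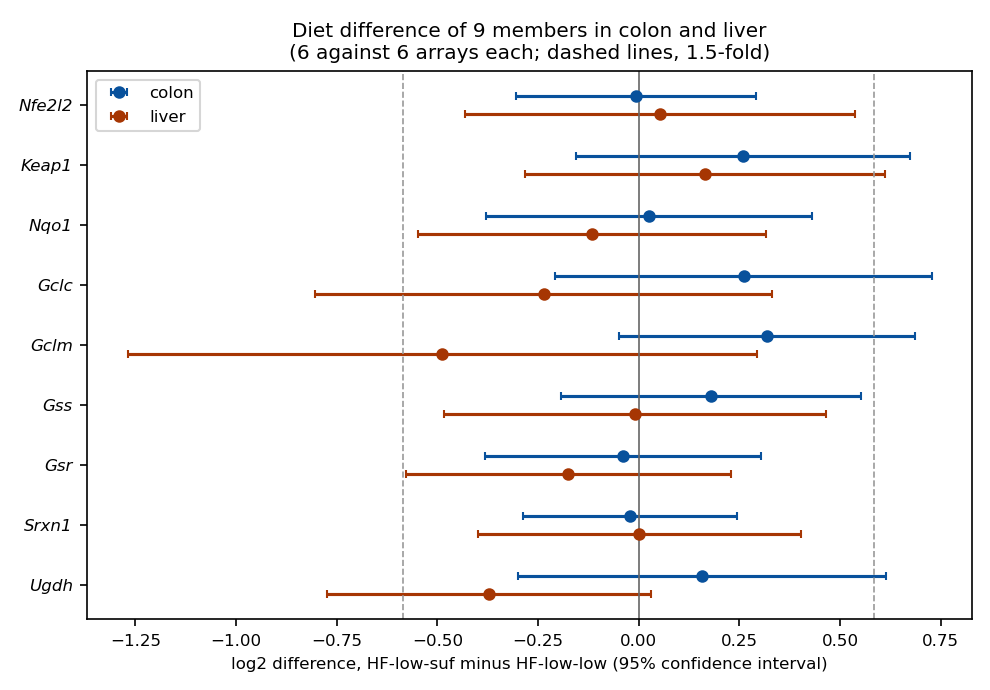
Log2 difference between the diets (x axis, HF-low-suf minus HF-low-low) for the main probe of each of 9 genes (y axis) in colon (blue) and liver (brown), with the 95% confidence interval from limma and dashed lines at a 1.5-fold change. Every interval spans 0, and the widest is that of Gclm in liver, from -1.27 to 0.29.

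Glutamate-cysteine ligase makes the first and rate-limiting step of glutathione synthesis, with Gclc as its catalytic subunit and Gclm as its regulatory one. In colon, Gclm ran from -1.55 to -0.74 with a median of -0.92 in the 6 HF-low-low mice, and from -1.01 to -0.18 with a median of -0.81 in the 6 HF-low-suf mice. The groups overlapped, and the difference was 0.32 ± 0.17 (SE; limma, unadjusted P = 0.0846; exact permutation test, two-sided, p = 0.102). In liver, Gclm ran from -0.04 to 0.88 with a median of 0.44 in HF-low-low, and from -1.94 to 0.70 with a median of 0.33 in HF-low-suf. A single liver, HF-low-suf replicate 4, held the value of -1.94, while the other 5 lay between -0.07 and 0.70. That array was the one with the bright reference channel and 8.75% outlier spots, and whether this bears on the value was not tested. The liver difference of -0.49 ± 0.36 became -0.11 ± 0.19 without it.

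Gclc showed no called difference between the diets either, with 0.26 ± 0.22 in colon (exact permutation p = 0.301) and -0.24 ± 0.26 in liver (exact permutation p = 0.429). The liver value was -0.40 without HF-low-low replicate 2 and -0.10 without HF-low-low replicate 5. The colon value differed between the scan days. It was 0.83 on the day of replicates 4 to 6, where it passed the threshold with 3 mice against 3, as did 103 of 41174 probes, and -0.31 on the day of replicates 1 to 3. Colon HF-low-low replicate 4, the lowest colon at -2.12, was among the mice of the first of these values, and without it the difference over both days was 0.12. In colon, HF-low-low mice ran from -2.12 to -0.77 and HF-low-suf mice from -1.58 to -0.67. Gss, glutathione synthetase, which adds glycine in the second step, differed by 0.18 ± 0.18 in colon and by -0.01 ± 0.22 in liver. A single low sample moved each value. Without colon HF-low-suf replicate 2 the colon difference was 0.31, and without liver HF-low-low replicate 3, the liver with the lowest hepatocyte markers, the liver one was -0.19.

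Ugdh, UDP-glucose dehydrogenase, makes the UDP-glucuronate used for glucuronidation. In liver it ran from -0.54 to 0.29 with a median of -0.21 in HF-low-low, and from -1.004 to -0.07 with a median of -0.56 in HF-low-suf. The lowest HF-low-suf values lay below all HF-low-low ones, but the groups overlapped, and the difference was -0.37 ± 0.19 (limma, unadjusted P = 0.0678; exact permutation test p = 0.0844). In colon the difference was 0.16 ± 0.22, and it was -0.37 on the first scan day and 0.68 on the second.

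The remaining members were not called either. Nqo1, the quinone reductase widely used as an NRF2 readout, ran from -0.27 to 0.84 in colon HF-low-low and from 0.03 to 0.66 in colon HF-low-suf, and the difference was 0.03 ± 0.19. In liver it ran from -0.87 to 0.37 in HF-low-low and from -0.69 to -0.04 in HF-low-suf, with a difference of -0.12 ± 0.20. This liver difference was -0.001 without HF-low-low replicate 1 and -0.25 without HF-low-low replicate 4. In both tissues the HF-low-suf range of Nqo1 lay within the HF-low-low range. Srxn1, sulfiredoxin, which reactivates peroxiredoxins, differed by -0.02 ± 0.13 in colon and by 0.00 ± 0.19 in liver. Nfe2l2 itself differed by -0.01 ± 0.14 and by 0.05 ± 0.23. Keap1 differed by 0.26 ± 0.20 in colon and by 0.16 ± 0.21 in liver, and Gsr by -0.04 ± 0.16 and -0.17 ± 0.19. Without 1 array, Keap1 ran from 0.13 to 0.36 in colon and from 0.04 to 0.24 in liver. In the same way Gsr ran from -0.14 to 0.03 in colon and from -0.26 to -0.04 in liver. The 7 secondary probes of Nfe2l2, Gsr and Srxn1 differed by -0.11 to 0.36 in colon and by -0.33 to 0.01 in liver, and none was called.

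The difference in diet effect between the tissues was tested itself, as the liver difference minus the colon difference. None of the 9 genes passed (unadjusted P below 0.01 and fold above 1.5; 514 of all probes did, 1.25%, and none passed an adjusted P of 0.05 in limma, with 2646 probes, 6.43%, at an unadjusted P below 0.05). Of the 9 values, 7 lay below 0. Gclm had the largest, at -0.81 ± 0.39 (limma, unadjusted P = 0.0492, adjusted P = 0.777; exact permutation test p = 0.0455), and it was -0.42 ± 0.24 without liver HF-low-suf replicate 4. Ugdh followed at -0.53 ± 0.27 (exact permutation p = 0.0541), and Gclc at -0.50 ± 0.34 (exact permutation p = 0.260). A secondary probe of Gsr had -0.57 ± 0.26 (P = 0.0370, adjusted P = 0.748; exact permutation test p = 0.0714), while its main probe had -0.14 ± 0.23.

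**Figure D2:**
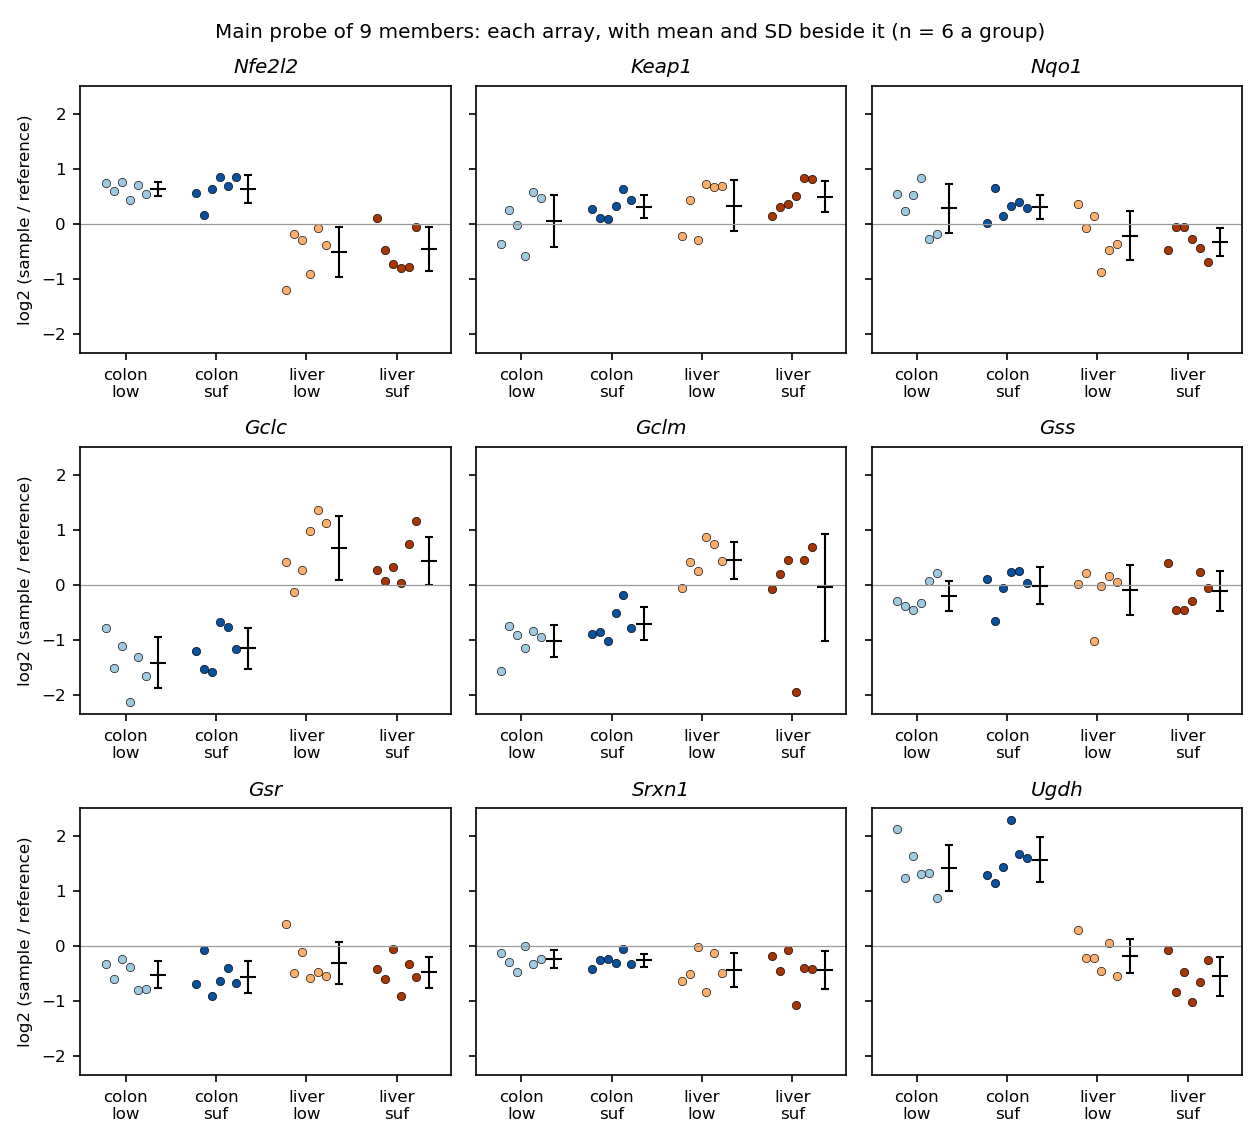
Log2 ratio of sample to reference (y axis) of the main probe of 9 genes in each of the 24 samples, by tissue and diet (x axis; low, HF-low-low; suf, HF-low-suf), in the order of replicates 1 to 6, with the mean and SD of 6 arrays beside the points. Colon and liver separate for Gclc, Ugdh and Nfe2l2, the diets overlap in every panel, and 1 liver lies at -1.94 for Gclm.

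Between liver and colon, Gclc and Gclm were higher in liver, and Ugdh and Nfe2l2 lower. These 4 of 9 genes passed an adjusted P of 0.05 and a 1.5-fold change, 2 in each direction, where 23.6% of all probes passed (11.4% higher and 12.2% lower in liver) and 45.5% of the 17020 probes whose sample signal cleared background in 12 or more of the samples (21.5% higher and 24.1% lower). With median centring in place of loess, 29.2% of the called probes were higher in liver, against 48.3%. The share among the genes was near that of the well-measured probes, so it says nothing particular about the pathway. In whole tissue, fewer cells of a type and less RNA per cell cannot be told apart.

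Gclc ran from -0.12 to 1.38 with a median of 0.38 in the 12 livers, and from -2.12 to -0.67 with a median of -1.25 in the 12 colons. The tissues did not overlap, and Gclc was higher in the liver than in the colon of all 12 mice. The liver level was 3.57-fold that of colon, a log2 difference of 1.84 ± 0.17 (SE; limma with the mouse as a random block, adjusted P = 5.98e-10; exact permutation p = 0.000488, the smallest that swapping the tissues within mice can give). Gclm ran from -1.94 to 0.88 in liver and from -1.55 to -0.18 in colon, and it was higher in the liver of 11 of 12 mice. The exception was HF-low-suf replicate 4, the array described above. The difference was 1.07 ± 0.20, or 2.09-fold (adjusted P = 5.46e-05; exact permutation p = 0.00391), and 1.26 ± 0.12 without that array. It was 1.47 ± 0.28 in HF-low-low mice and 0.66 ± 0.28 in HF-low-suf mice, where it did not pass (adjusted P = 0.0721), but the latter was 1.05 ± 0.17 and passed without liver replicate 4 (limma, adjusted P = 2.01e-05; this value was computed after the data were seen). With plain background subtraction the difference over all mice was 0.47 and was not called (adjusted P = 0.694).

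The Gclm probe reads across a splice junction, since its 60 bases span 2636 bases of chr3:122027477-122030112 (build mm7, plus strand), and it is printed because the value rests on it alone. Gclc, Keap1, Nqo1, Gss and Ugdh were also measured by 1 probe each.
Gclm probe: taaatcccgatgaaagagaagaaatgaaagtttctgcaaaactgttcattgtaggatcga

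Gss, the enzyme of the second step, did not pass. It ran from -1.002 to 0.41 in liver and from -0.66 to 0.25 in colon, with a difference of 0.01 ± 0.13 (adjusted P = 0.982) and a 95% confidence interval of -0.26 to 0.27. Gsr differed by 0.15 ± 0.11 (adjusted P = 0.365), and its 2 other probes by 0.23 and 0.22.

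Ugdh ran from -1.004 to 0.29 with a median of -0.34 in liver, and from 0.88 to 2.29 with a median of 1.39 in colon. The tissues did not overlap, and Ugdh was lower in the liver of all 12 mice. The colon level was 3.63-fold that of liver, a log2 difference of -1.86 ± 0.14 (adjusted P = 6.72e-12; exact permutation p = 0.000488). The difference was -1.59 ± 0.19 in HF-low-low and -2.12 ± 0.19 in HF-low-suf mice.

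Nfe2l2 ran from -1.20 to 0.12 in liver and from 0.17 to 0.87 in colon with its main probe. These ranges did not overlap, the liver was lower in all 12 mice, and the difference was -1.11 ± 0.12, or 2.17-fold (adjusted P = 2.16e-08; exact permutation p = 0.000488). The highest liver value, 0.12, was that of HF-low-suf replicate 1, the liver with the high adipose markers, and whether this bears on the value was not tested. The 4 probes of Nfe2l2 did not run together. The main probe and a second one on the RefSeq transcript, at chr2:75519430-75519489 and chr2:75519576-75519635 (build mm7, minus strand), differed by -1.11 and -0.87. The 2 others were designed on cDNA clones and lie farther 5′, and both were dim. The first was well above background in 3 of 6 samples of each liver group and in all colons, and the second in 3 of 6 HF-low-low colons, in all HF-low-suf colons and in 5 of 6 samples of each liver group. The one at chr2:75544410-75544469 differed by -0.69 ± 0.14 (adjusted P = 2.02e-04) and was lower in the liver of all 12 mice. The one at chr2:75535606-75535665 differed by 0.47 ± 0.15 (adjusted P = 0.0129), was higher in the liver of 9 of 12 mice, and stayed under 1.5-fold. They are printed because their differences had opposite signs for the same gene. Which transcript each cDNA-clone probe detects was not tested.
Nfe2l2 probe at chr2:75544410-75544469: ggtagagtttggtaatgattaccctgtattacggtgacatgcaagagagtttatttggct
Nfe2l2 probe at chr2:75535606-75535665: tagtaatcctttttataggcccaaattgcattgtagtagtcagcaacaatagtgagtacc

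**Figure D3:**
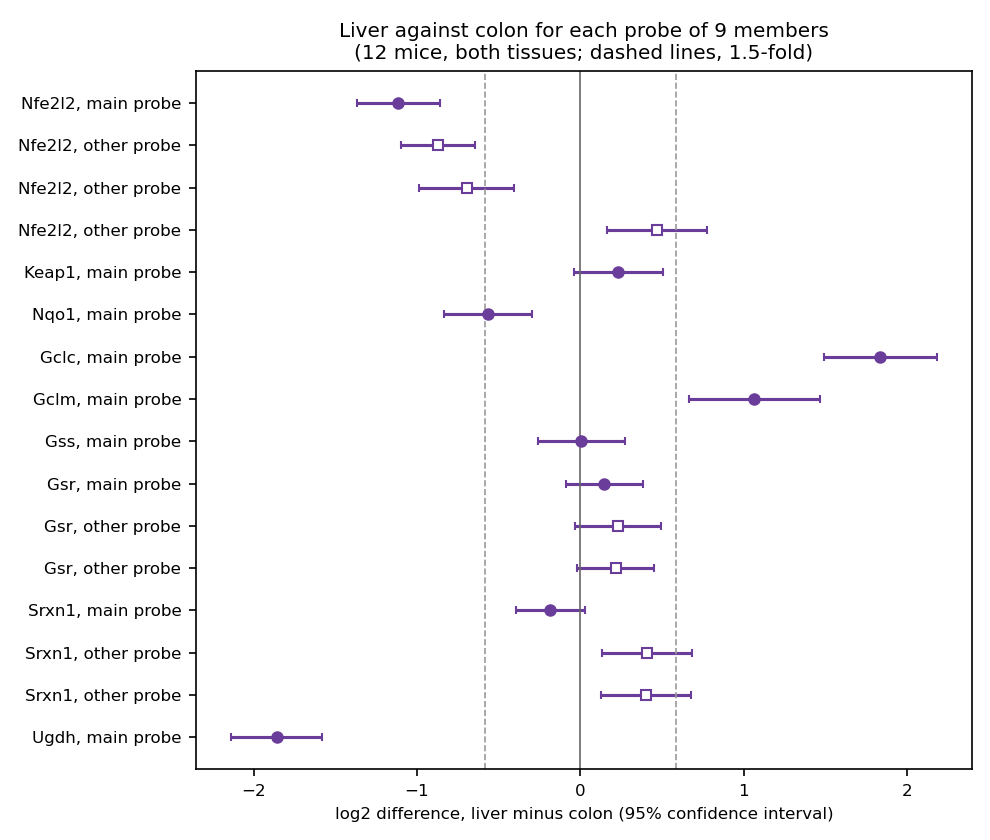
Log2 difference between liver and colon (x axis, with the 95% confidence interval from limma) for each of the 16 probes of 9 genes (y axis), with the main probe of each gene filled, other probes open, and dashed lines at a 1.5-fold change. Gclc and Gclm lie above 0, Ugdh below, and Nfe2l2 and Srxn1 have probes on both sides of 0.

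Keap1, the repressor, differed by 0.23 ± 0.13 and did not pass (adjusted P = 0.189), although it was higher in the liver of 10 of 12 mice and the exact permutation p was 0.0181. Nqo1 ran from -0.87 to 0.37 in liver and from -0.27 to 0.84 in colon. The ranges overlapped, but Nqo1 was lower in the liver of all 12 mice. The difference was -0.56 ± 0.13 (adjusted P = 8.36e-04; exact permutation p = 0.000488), and at 1.48-fold it fell just short of the 1.5-fold threshold. It passed that threshold under several alternatives, with -0.59 to -0.94. It was smaller under others, at -0.38 on scan day 1 alone and -0.49 without liver HF-low-low replicate 4. The highest adjusted P over the alternatives was 0.0640 (limma). Srxn1 differed by -0.18 ± 0.10 with its main probe (adjusted P = 0.189). Its 2 other probes overlap each other and gave 0.41 ± 0.13 and 0.40 ± 0.13 (adjusted P = 0.0155 and 0.0177), so the direction of Srxn1 depended on the probe.

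**Figure D4:**
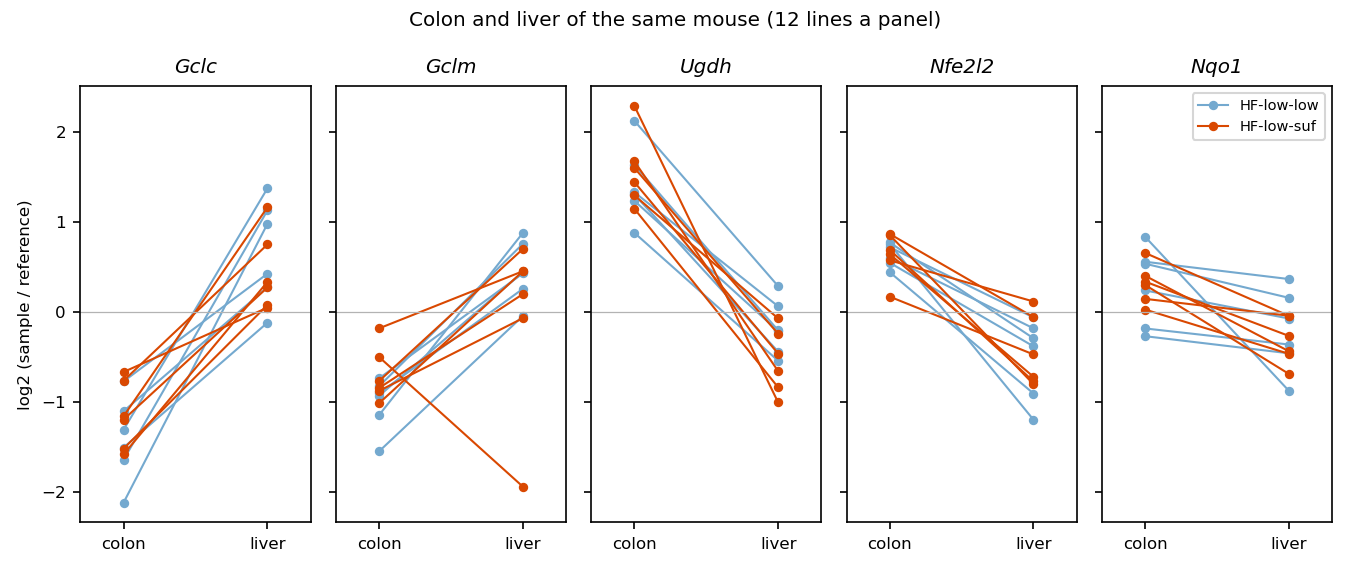
Log2 ratio of sample to reference (y axis) in the colon and the liver of each mouse, joined by a line (12 mice a panel; blue, HF-low-low; orange, HF-low-suf), for Gclc, Gclm, Ugdh, Nfe2l2 and Nqo1. All lines rise for Gclc and fall for Ugdh, Nfe2l2 and Nqo1, and 1 line falls for Gclm.

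The other genes of the pathway were described from 5 lists. None of their genes passed the diet threshold in colon or liver. Among 26 of 28 other NRF2 target genes on the array, the median diet difference was -0.02 in colon and 0.01 in liver. The highest difference among well-measured genes was that of Akr1b8, an aldo-keto reductase, in liver, at 0.53 ± 0.30 (limma, adjusted P = 0.99999). The lowest was that of Gsta3, a glutathione S-transferase, in colon, at -0.40 ± 0.26 (limma, adjusted P = 0.99994). Among these well-measured genes the highest in colon was Gsta4 at 0.08 ± 0.13, and the lowest in liver was Abcc3, an efflux pump, at -0.23 ± 0.15. Of the selenoproteins whose mRNA is known to fall in selenium deficiency, Gpx1 differed by -0.09 ± 0.14 in colon and by 0.03 ± 0.16 in liver, and Sepw1 by 0.03 ± 0.18 and 0.17 ± 0.16. The median of the 3 selenoproteins was -0.06 in colon, with 1 above 0, and 0.16 in liver, with all 3 above 0.

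The 12 other regulators of NRF2 had a median diet difference of 0.03 in colon and 0.01 in liver. Their extremes were Gsk3b, a kinase that marks NRF2 for decay, at 0.25 ± 0.29 and Maff at -0.24 ± 0.21 in colon, and Nfe2l1, a related factor, at 0.18 ± 0.14 and the coactivator Crebbp at -0.21 ± 0.18 in liver. The 13 genes of glutathione turnover and cysteine supply had medians of -0.02 and -0.01, with Glrx (glutaredoxin) at 0.23 ± 0.14 and the peptidase Anpep at -0.47 ± 0.31 in colon, and with Dpep1 at 0.16 ± 0.21 and Cth at -0.23 ± 0.20 in liver. The 8 genes of UDP-glucuronate supply and use had medians of 0.05 and -0.05. The lowest in this list was in liver, for Slc35d1, which carries UDP-glucuronate into the endoplasmic reticulum, at -0.31 ± 0.16 (limma, unadjusted P = 0.0703), and the highest in colon, for Ugt1a1, at 0.31 ± 0.19. The other extremes were Ugt2b5 in liver at 0.07 ± 0.13 and Gusb in colon at -0.02 ± 0.15.

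Between the tissues the lists held genes called in both directions, except that the UDP-glucuronate and selenoprotein lists held none called lower. Their counts stand against the 21.5% higher and 24.1% lower among all well-measured probes, and nothing particular to a list is read from them. Of the 26 other NRF2 targets, 11 were higher in liver, 8 lower and 7 not called, with a median of 0.32 against 0.02 over all probes. Gsta3 was 71.2-fold higher in liver (log2 difference 6.15 ± 0.15, limma adjusted P = 1.41e-22). Abcc2, the canalicular conjugate pump, was higher too (limma adjusted P = 2.23e-20), and since its probe was well above background in only 2 of 12 colons, no fold is given. Gpx2, the glutathione peroxidase of the intestinal epithelium, was 16.0-fold lower (-4.00 ± 0.16, adjusted P = 1.17e-17). Whether probes of multigene families such as the glutathione and glucuronosyl transferases read 1 family member was not tested.

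Among the 12 other regulators, Mafg (1.14 ± 0.15), a small MAF partner of NRF2, and Sqstm1 (0.75 ± 0.09), which binds KEAP1, were higher in liver. Mafk (-0.71 ± 0.10) and Crebbp were lower, and 8 were not called, with a median of -0.15. Of the 13 genes of glutathione turnover and cysteine supply, 6 were higher in liver, 2 lower and 5 not called, with a median of 0.34. Cth and Cbs, the enzymes that make cysteine from homocysteine, were 9.05-fold and 4.79-fold higher (3.18 ± 0.11 and 2.26 ± 0.14). Dpep1, a dipeptidase that acts on the products of glutathione breakdown, was 8.81-fold lower (-3.14 ± 0.11).

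Of the 8 genes around UDP-glucuronate, 4 were higher in liver and none was lower, with a median of 0.78. Gulo, a gene of ascorbate synthesis, was 60.1-fold higher (5.91 ± 0.10), Ugt2b5 8.67-fold (3.12 ± 0.08) and Ugt1a1 2.34-fold (1.23 ± 0.16). The Gulo probe was well above background in only 9 of 12 colons, so its fold rests in part on dim colon signals. Ugdh, which makes the shared substrate, was lower in liver as given above. Of the 3 selenoproteins, Gpx1 was 5.15-fold higher in liver (2.37 ± 0.09). Sepw1 at -0.21 ± 0.12 and Selh (2700094K13Rik on the array) at -0.46 ± 0.11 were not called, and the list median was -0.21.

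**Figure D5:**
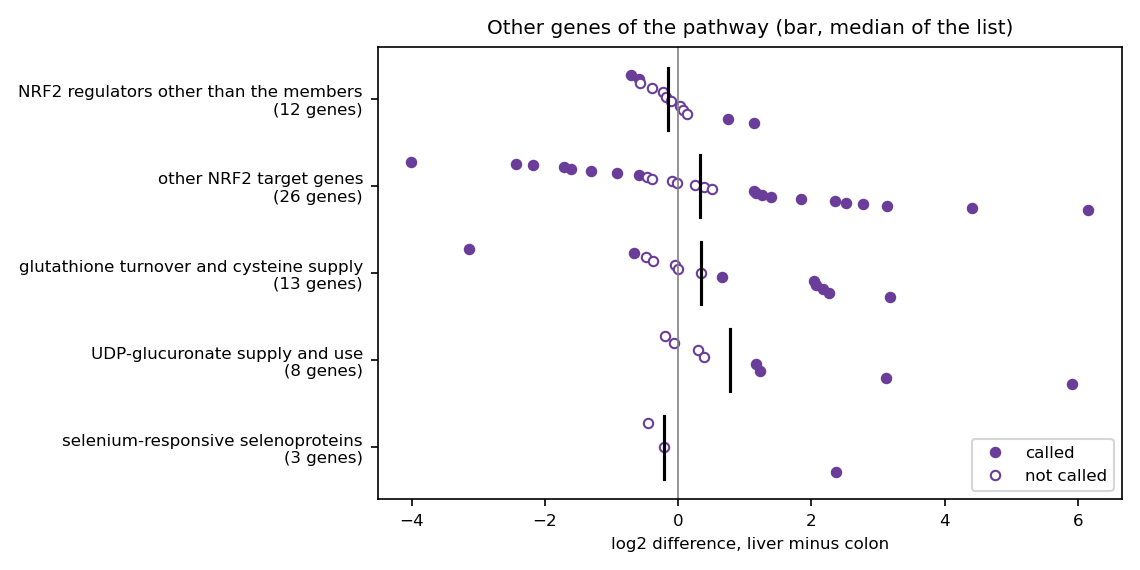
Log2 difference between liver and colon (x axis) of the genes of 5 lists (y axis), filled where a gene passed an adjusted P of 0.05 and a 1.5-fold change, with a bar at the median of each list. The other NRF2 targets run from -4.00 for Gpx2 to 6.15 for Gsta3, and no gene of the UDP-glucuronate list passed below 0.

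From mouse to mouse, correlations between the 9 genes ran in both directions. After the mean of each group was removed, the 36 pairs had correlations from -0.78 to 0.82 with a median of 0.12 in the 12 colons, and from -0.80 to 0.66 with a median of 0.17 in the 12 livers. Keap1 rose with Nfe2l2, Gclc, Gclm and Gss in both tissues, at most with Gclm in colon (r = 0.70) and with Gclc in liver (r = 0.66). It fell with Nqo1, Gsr, Srxn1 and Ugdh in both. The lowest pair was the same in both tissues, Keap1 with Nqo1, and is given here because it was the extreme. In colon r was -0.78 (permutation p = 0.00276) and Spearman's rho -0.70 (permutation p = 0.0145), and in liver r was -0.80 (permutation p = 0.00199) and rho -0.80 (permutation p = 0.00321). Adjusted over the 72 pairs the permutation p was 0.0499 in both, and 2 other pairs reached the same adjusted p, both in colon. These were Nqo1 with Gsr (r = 0.82, permutation p = 0.00101) and Gclc with Ugdh (r = 0.77, permutation p = 0.00264). The p values came from 100000 random draws that took no account of diet group or scan day. An adjusted p this near 0.05 therefore does not settle whether these pairs pass. Without the 2 samples farthest in Keap1, r was -0.56 in colon and -0.65 in liver. Within the 6 samples of each scan day it was -0.44 and -0.90 in colon and -0.41 and -0.69 in liver. Keap1 was 0.58 higher and Nqo1 0.50 lower in the livers of the second day than of the first (limma, adjusted P = 0.130 and 0.184), and Gclc was 0.70 higher (limma, adjusted P = 0.157). None of the 9 genes passed an adjusted P of 0.05 for the scan day in either tissue, where 0 probes passed in colon and 15 in liver (0.0364%). Under the threshold used for the diet, Gclc was the 1 gene that passed for the scan day, in liver, where 1.85% of all probes did (0.857% in colon). With the day means removed the r of Keap1 with Nqo1 was -0.48 in liver and -0.78 in colon. No p was computed for these, so the permutation p values above do not show that the liver pair holds apart from the scan day. The samples of a mouse in the 2 tissues shared a slide.

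The genes most like Nqo1 over the 24 samples, after the group means were removed and among 10120 genes well above background on at least 18 arrays, were Vps54 (r = 0.85), 4930535B03Rik (0.84), Lmo7 (0.83), Kdelc2 (0.82) and Kctd20 (0.82). None of them belonged to the lists. Pearson's r is a description here, picked as the highest of many.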

How the data were processed

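The genes and lists were chosen with earlier results of these data known. RNA of 12 mice was hybridised to Agilent 4x44k mouse arrays, sample in Cy3 and reference pool in Cy5, with no dye swap. The deposited files hold spot intensity values that the authors extracted with Feature Extraction (probe coordinates in build mm7), and the submitters' processing notes name limma. From the mean intensity and median background of each spot, normexp background correction (offset 50, which shrinks folds of dim probes), loess within arrays and averaging by probe gave log2 ratios (limma 3.58.1, statmod 1.5.0, R 4.3.3). Control spots and outlier spots were left out. The number of arrays limits the precision.

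Diets were compared in the 12 arrays of a tissue with the study's threshold. For the tissues all 24 arrays entered 1 fit, in which the mouse was a random block (correlation 0.16), since the labels name the mouse. Intervals are 95%. Exact permutation tests were two-sided, over all 924 assignments of mice or all swaps of tissue within mice. All members are named, and from each list, per comparison, up to 3 called genes with the largest difference, or for the diet the highest and lowest difference among genes well above background on at least 6 arrays. The pipeline was tested on simulated data. Alternatives covered background, scaling, channel, outlier spots, dim probes, scan day, pairing and left-out arrays. The annotation of mm7 was not used here, so exons and untranslated regions of probes are not given.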

Additional observations from a re-analysis of the deposited data

Results flagged for a closer look

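Among the 36 groups of 6 values (9 genes in 4 groups), 3 had a sample whose gap to the nearest other, divided by the range of the group, passed Dixon's 95% critical value; chance alone flags about 1 in 20 groups. Gclm in liver HF-low-suf replicate 4 had a gap of 0.709 of the range, at -1.94 against -0.07 to 0.70 in the other 5 livers. Gss in liver HF-low-low replicate 3 had a gap of 0.809, at -1.002 against -0.01 to 0.22. The same liver had the lowest hepatocyte marker mean, 1.18 against 1.67 to 2.07 in the other 11 livers, and the part of this in the Gss value was not tested. Gss in colon HF-low-suf replicate 2 had a gap of 0.676, at -0.66 against -0.04 to 0.25.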

How the results depend on the processing

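Direction and call of Gclc, Ugdh and Nfe2l2 between liver and colon held under all alternatives run; the causes of the changes below were not tested. Gclm lost its call with plain background subtraction (0.47, adjusted P = 0.694) and on scan day 2 alone (0.94). With median centring, liver minus colon turned to -0.16 for Keap1, -0.38 for Gss and -0.24 for Gsr, and the colon diet difference to 0.15 for Nfe2l2, 0.13 for Gsr and 0.14 for Srxn1. Processed signals moved the median of all probes between liver and colon from 0.02 to -0.19. On scan day 1 alone, the colon diet difference was -0.17 for Nqo1, -0.31 for Gclc and -0.37 for Ugdh. On that day the liver diet difference of Gclc was 0.034, and its difference in diet effect between the tissues was 0.34. On scan day 2 alone, the diet difference was 0.23 for Nfe2l2 in colon and 0.10 for Nqo1 in liver. The difference in diet effect between the tissues was then -0.33 for Nfe2l2. On that day Gclc was the 1 gene called for the diet in colon (0.83, with 103 of all probes called). It was also the 1 gene called for the difference in diet effect between the tissues (-1.33, with 79 of all probes called).

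Probes called for the diet in colon (69) became 13 without background correction, 26 with median centring, 19 with Cy3 alone, 3 among probes well above background on at least 6 arrays, 113 with scan day as a block, 278 on scan day 1 alone, 42 without the 2 arrays with a bright reference, and 23 (without HF-low-low replicate 1) to 257 (without HF-low-low replicate 5) without 1 array. In liver (48) they became 12, 2, 24 and 2 under the first 4 of these, 144 with all 24 arrays in 1 fit, 2 on scan day 2 alone, 31 without the livers rich in adipose or muscle transcripts, and 9 (without HF-low-low replicate 1) to 304 (without HF-low-low replicate 3) without 1 array. For the difference in diet effect between the tissues (514) they became 255 without background correction, 127 with processed signals and 179 with median centring. They became 53 among bright probes and 79 on scan day 2 alone. Without 1 array they ran from 329 (without colon HF-low-suf replicate 1) to 907 (without liver HF-low-low replicate 6), with 0 to 3 at an adjusted P below 0.05. Between liver and colon 4 to 5 of the 9 genes were called without 1 array.

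Across diets, samples of the same replicate number share a slide, and their deviations correlated at -0.34 to 0.44 in colon and -0.57 to 0.64 in liver, so they were not taken as pairs. With the replicate block 92 probes were called in colon and 131 in liver, and 0 of the 9 genes in each (Ugdh in liver at -0.37). With the mouse as a fixed replicate block 9688 probes and 4 genes were called between the tissues. Slc7a11 was limited by its signal over background.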
